A study of Mus musculus with 12 samples.

Results

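The 10 genes of polyamine synthesis and its control, Odc1, Amd1, Srm, Sms, Azin1, Oaz1, Oaz2, Sat1, Paox and Smox, were followed in a mouse B cell lymphoma line exposed to WM-1119. They were chosen as mouse genes of the pathway, with earlier results of these data known. Each was matched by its Entrez identifier to a row of the count table. All 10 are among the 26305 identified genes of that table, and 9 are among the 11997 that passed the filter on low counts. Smox did not pass it. EMRK1184luc is a line that carries a lentiviral luciferase marker and was made from a lymphoma of 1 female Eµ-Myc transgenic mouse, in which an immunoglobulin heavy chain enhancer drives Myc in the B lineage. All 12 samples share that transgene and that marker. The 4 groups of 3 received DMSO, the vehicle, or 5 µM WM-1119, an inhibitor of MYST histone acetyltransferases, for 3 or 6 days. Poly(A) RNA was sequenced, and the question addressed is which transcripts differ after the inhibitor at each time. The samples are called biological replicates, but whether they came from separate cultures is not stated, and p-values then reflect only sample-to-sample spread, which may be technical.

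Polyamines (putrescine, spermidine and spermine) are small positively charged molecules that bind nucleic acids and are needed for growth. Ornithine decarboxylase (Odc1) makes putrescine, S-adenosylmethionine decarboxylase (Amd1) supplies the aminopropyl donor, and spermidine synthase (Srm) and spermine synthase (Sms) add the aminopropyl groups. Antizymes (Oaz1, Oaz2) bind ornithine decarboxylase and send it to the proteasome, and the antizyme inhibitor (Azin1) ties up antizyme. Spermidine/spermine acetyltransferase (Sat1) with polyamine oxidase (Paox), and spermine oxidase (Smox) directly, run the pathway backwards. Odc1 is a textbook target of MYC, and antizyme, Odc1 and Amd1 are also controlled at translation or protein stability, which RNA counts do not measure.

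The libraries held between 14736300 and 41749400 counts. Summed B lineage markers (9 genes) reached 2824 to 3105 CPM (counts relative to the TMM-scaled library total) in every library, although Ms4a1, which encodes CD20, had 0 counts in 11 libraries and 1 count in the other. Of the 8 of these markers tested, 2 were called higher and 3 lower at 3 days, and 3 and 3 at 6 days (adjusted p below 0.05 by edgeR). Of all genes tested, 24.4% and 30.8% were called. After WM-1119 Pax5, Cd22 and Ebf1 were lower (log2 fold change -0.47, -0.31 and -0.37 at 3 days, and -0.58, -0.56 and -0.29 at 6 days). Cd79b (0.50 and 0.48) and Ptprc (0.22 and 0.26) were higher at both times, and Blnk was higher at 6 days (0.16). Of 8 myeloid markers 2 were tested. Csf1r, the receptor of a macrophage growth factor, rose from 1.04 to 4.66 mean CPM at 3 days (adjusted p = 1.1e-07) and from 0.83 to 4.14 at 6 days (adjusted p = 3.1e-08). Itgam, at 103 to 121 mean CPM, went the other way at 3 days (log2 fold change -0.14, adjusted p = 0.028). At 6 days Itgam was at 0.10 and was not called (adjusted p = 0.10). The part of these shifts in the polyamine results was not tested. Summed T cell markers were at 1.02 to 2.27 CPM, with 5 or 6 of the 8 genes at 0 throughout a group. Fibroblast markers (10 genes) summed to 0.816 to 37.1 CPM. Their level was set by 5 libraries with over 1 CPM of the collagen gene Col1a1: at 3 days WM-1119 replicate 2 (1.88 CPM), and at 6 days replicates 1 and 2 of DMSO (6.10 and 2.08 CPM) and of WM-1119 (6.83 and 12.9 CPM). Counts called among the 9 tested genes, the connected genes and the regulators were also made without those 5, which leaves 1 library in each group at 6 days. Ebf1 at 6 days lost its call in that fit, at a log2 fold change of -0.24. In bulk RNA, fewer cells of a type and less RNA per cell cannot be told apart.

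For 3 of the 10 genes a near-identical copy elsewhere in the genome also drew counts. The sequences below show how little separates the coding part of each pair. Over the longest transcript, the match covered 1101 of 3717 bases for Sms, 685 of 1071 for Oaz1 and 3202 of 3204 for Amd1. Sms shares its coding sequence of 1098 bases with the processed pseudogene Sms-ps on chromosome X without a difference. Amd1 and Amd2, a gene also on chromosome 10, differ by 1 substitution in 1002 bases, G796C. Oaz1 and the pseudogene Oaz1-ps on chromosome 17 differ by 1 substitution, G125C. Their alignment of 682 bases also holds 1 gap, in the annotated Oaz1 coding sequence of 681 bases. Whether that gap is a difference between the genes or comes from the annotation was not tested. Positions count from 1 at the first base of the start codon, the member's base is given first, and capitals mark the substitution. The stretches of 80 coding bases from GENCODE M21 (GRCm38) read:
Sms, coding bases 1 to 80: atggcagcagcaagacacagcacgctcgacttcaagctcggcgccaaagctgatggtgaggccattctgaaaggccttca
Sms-ps, aligned stretch: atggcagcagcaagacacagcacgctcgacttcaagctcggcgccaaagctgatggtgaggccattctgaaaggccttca
Amd1, coding bases 756 to 835: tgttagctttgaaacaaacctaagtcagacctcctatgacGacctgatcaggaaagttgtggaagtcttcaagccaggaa
Amd2, aligned stretch: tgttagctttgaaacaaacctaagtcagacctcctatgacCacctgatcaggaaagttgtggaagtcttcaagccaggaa
Oaz1, coding bases 85 to 164: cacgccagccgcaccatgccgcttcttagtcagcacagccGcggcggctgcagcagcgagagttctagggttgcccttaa
Oaz1-ps, aligned stretch: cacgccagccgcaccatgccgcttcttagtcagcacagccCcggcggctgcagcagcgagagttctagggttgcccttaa

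A stretch of 100 bases taken from the coding part would hold no difference at 100% of positions for Sms, 88.93% for Amd1 and 69.13% for Oaz1. The value for Oaz1 counts the gap as a difference and would be higher without it. Over the 12 libraries Sms-ps held 26988 counts against 10441 for Sms, Amd2 held 27616 against 27264 for Amd1, and Oaz1-ps held 152055 against 38795 for Oaz1. Of the counts of each pair, Sms took 25.1% to 30.1% in a library, Amd1 47.5% to 51.3% and Oaz1 17.1% to 23.0%. The sources used here do not give how reads with several matching places were counted, so the values of Sms, Amd1 and Oaz1 are uncertain and are given both alone and summed with the copy. Of the copies of the other members with at least 95% identity over 300 bases, only AW146154 and Gm15645, both similar to Odc1, are rows of the table, with 1957 and 188 counts against 167886 for Odc1. Copies without a row include Gm19680, 99.9% identical to Paox over 1358 bases, and Oaz2-ps, 98.7% identical to Oaz2 over 471 bases. Amd1 also has copies without a row, among them Amd-ps3 (99.9% identical over 1005 bases) and Amd-ps4 (99.5% over 1005 bases). Whether reads shared with such copies altered the values of the members was not tested.

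At 3 days 5 of the 9 tested genes passed the test (edgeR's quasi-likelihood test, adjusted p below 0.05 over all genes), against 24.4% of all genes tested. Odc1, Srm and Amd1 were lower, where 12.7% of all genes were, and Sms and Oaz2 were higher, where 11.8% were. At 6 days 5 of 9 again passed, against 30.8% of all genes. Odc1, Srm, Amd1 and Oaz1 were lower, where 15.1% of all genes were, and Oaz2 was higher, where 15.7% were. The WM-1119 and DMSO libraries did not overlap for 5 of the 9 genes at each time, against 39.9% of all genes at 3 days and 41.3% at 6 days. The median log2 fold change of the 9 genes was -0.06 at 3 days and -0.09 at 6 days, beside 0.00 for all genes at both times. Since the genes were chosen with earlier results of these data known, these shares are a description only. Without the 5 libraries with over 1 CPM of Col1a1, 5 genes passed at 3 days, against 18.8% of all genes in that fit, and 3 at 6 days (Odc1, Srm and Amd1), against 12.4%. The part of fibroblast RNA in these results was not tested.

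**Figure D1:**
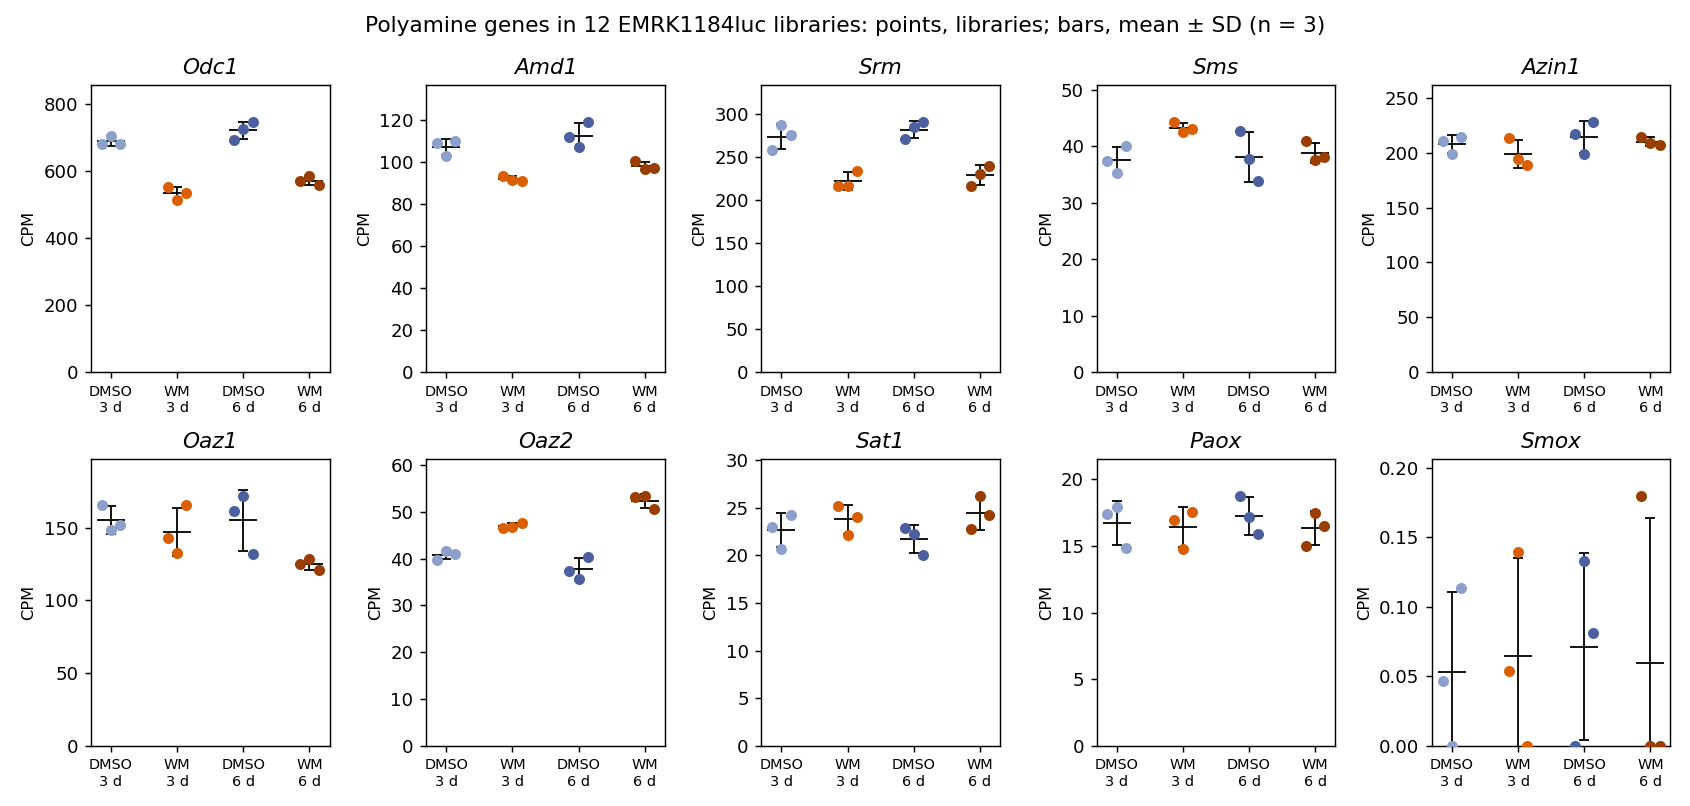
Level of each of the 10 genes in CPM (vertical axes, linear from 0) in the 12 libraries, by treatment and time. Points are libraries and bars are the mean ± SD of 3. Odc1, Srm and Amd1 are lower in all WM-1119 libraries than in all DMSO libraries of the same time, Oaz2 is higher, and Smox stays under 0.2 CPM.

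The first enzyme, Odc1 (chr12:17544808-17551502), was lower after WM-1119 at both times. Gene positions here and below are those of RefSeq on GRCm38.p6. Odc1 stood at 682, 707 and 682 CPM in DMSO and at 552, 513 and 537 CPM in WM-1119 at 3 days. At 6 days it stood at 695, 725 and 746 CPM in DMSO and at 570, 587 and 560 CPM in WM-1119. The highest treated library lay below the lowest control at each time. Odc1 fell by 22.7% at 3 days (log2 fold change -0.37 ± 0.04, SE, n = 3 per group, adjusted p = 9.4e-07) and by 20.7% at 6 days (-0.33 ± 0.04, adjusted p = 2.4e-06). It was called in all 23 alternatives at 3 days and all 24 at 6 days, with log2 fold changes from -0.42 to -0.31 over both times.

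Amd1 (chr10:40287458-40302188), whose product makes decarboxylated S-adenosylmethionine, was lower by a smaller margin. DMSO libraries at 3 days held 109, 103 and 109.9 CPM and WM-1119 libraries 93.5, 91.6 and 91.2 CPM. At 6 days the DMSO libraries held 112, 107 and 119 CPM and the WM-1119 libraries 101, 96.8 and 97.2 CPM, again without overlap. Amd1 fell by 14.2% at 3 days (log2 fold change -0.22 ± 0.05, adjusted p = 0.0016) and by 12.8% at 6 days (-0.20 ± 0.05, adjusted p = 0.0031). Amd2 alone was at 108 ± 8.84 CPM in DMSO and 89.3 ± 1.81 CPM in WM-1119 at 3 days (SD, n = 3), a log2 fold change of -0.28 (adjusted p = 0.0015), and at -0.20 at 6 days (adjusted p = 0.015). Summed, the pair stood at 216 ± 12.6 against 181 ± 2.17 CPM at 3 days and at 229 ± 13.9 against 200 ± 4.43 CPM at 6 days. The sum fell by 0.25 on the log2 scale at 3 days (adjusted p = 0.00076) and by 0.20 at 6 days (adjusted p = 0.0043). The call was thus made for Amd1, for Amd2 and for their sum, while copies without a row could not be added.

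Srm (chr4:148591513-148594619), which turns putrescine into spermidine, was also lower at both times. Its DMSO libraries held 258, 287 and 275 CPM at 3 days, and its WM-1119 libraries 216, 216 and 234 CPM. At 6 days the values were 270.4, 284 and 290 CPM in DMSO and 216, 230.2 and 239 CPM in WM-1119. The groups did not overlap at either time. Srm fell by 18.8% at 3 days (log2 fold change -0.30 ± 0.05, adjusted p = 0.00013) and by 18.8% at 6 days (-0.30 ± 0.05, adjusted p = 9.1e-05).

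Sms (chrX:157443851-157492287), which turns spermidine into spermine, did not follow the other synthase, Srm. At 3 days the DMSO libraries held 37.4, 35.2 and 40.0 CPM and the WM-1119 libraries 44.2, 42.5 and 43.0 CPM, so every treated library was higher. At 6 days the ranges overlapped, with 42.7, 37.8 and 33.9 CPM in DMSO and 40.9, 37.5 and 38.1 CPM in WM-1119. The log2 fold change was 0.20 ± 0.07 at 3 days (adjusted p = 0.048) and 0.02 ± 0.07 at 6 days (adjusted p = 0.87). Summed with Sms-ps, the values were 132 ± 4.90 and 151 ± 5.05 CPM at 3 days (log2 fold change 0.19 ± 0.05, adjusted p = 0.0046) and 138 ± 4.11 and 148 ± 6.60 CPM at 6 days (0.09 ± 0.05, adjusted p = 0.15). Every WM-1119 sum lay above all DMSO sums of the same time, though the sum was not called at 6 days. The call for Sms alone was lost with DESeq2 (adjusted p = 0.070), with limma voom (0.066) and after thinning to equal totals (0.063). It was also lost without DMSO replicate 1 (0.11) or 2 (0.21) at 3 days, WM-1119 replicate 1 (0.12), 2 (0.086) or 3 (0.097) at 3 days, DMSO replicate 2 at 6 days (0.060) and WM-1119 replicate 3 at 6 days (0.058).

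Among the control genes, Oaz2 (chr9:65676548-65690300), the less abundant antizyme transcript, was higher after WM-1119. Its DMSO libraries held 39.7, 41.6 and 41.1 CPM at 3 days and its WM-1119 libraries 46.6, 46.8 and 47.7 CPM. At 6 days the DMSO libraries held 37.3, 35.7 and 40.2 CPM and the WM-1119 libraries 53.1, 53.4 and 50.5 CPM, the widest gap among the 9 genes relative to control. Oaz2 rose by 15.3% at 3 days (log2 fold change 0.20 ± 0.06, adjusted p = 0.011) and by 38.7% at 6 days (0.47 ± 0.06, adjusted p = 1.2e-06). Without DMSO replicate 1 at 3 days the adjusted p at 3 days was 0.052 (log2 fold change 0.19). Without the 5 libraries with over 1 CPM of Col1a1 the value at 6 days was 0.33, with an adjusted p of 0.052 from 1 library per group, assumed to vary like the other groups.

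Oaz1 (chr10:80826656-80829290), the main antizyme gene, gave values that depended on its copy. At 3 days its DMSO libraries held 166, 148 and 152 CPM and its WM-1119 libraries 143, 133 and 166 CPM, which overlap (log2 fold change -0.08 ± 0.10, adjusted p = 0.62). At 6 days DMSO held 161, 172 and 132 CPM and WM-1119 125, 129 and 121 CPM, with DMSO replicate 3 close to the treated libraries. The model estimate there was a log2 fold change of -0.31 ± 0.10 (adjusted p = 0.040). Oaz1-ps, with 589 ± 39.3 CPM in DMSO and 584 ± 20.2 CPM in WM-1119 at 6 days, had a log2 fold change of -0.01 (adjusted p = 0.88). The sum of both was 744 ± 32.3 against 709 ± 21.9 CPM, a log2 fold change of -0.07 ± 0.04 (adjusted p = 0.24), so the call for Oaz1 at 6 days was lost once the copy was added. At 3 days the sum was 752 ± 9.87 against 698 ± 22.1 CPM (-0.11 ± 0.04, adjusted p = 0.074). Alone, Oaz1 at 6 days was called in 11 of 23 alternatives. Leaving out any of DMSO replicates 2 (adjusted p = 0.057) and 3 (0.060) at 3 days, WM-1119 replicate 1 at 3 days (0.064), DMSO replicates 1 (0.12) and 2 (0.12) at 6 days, or WM-1119 replicates 1 (0.095), 2 (0.081) and 3 (0.12) at 6 days ended the call. It also ended with upper-quartile scaling (0.057), with no filter (0.082), with the replicate number as a block in all 4 groups (0.093) and without the 5 libraries with over 1 CPM of Col1a1, where the log2 fold change was -0.12 (0.51).

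**Figure D2:**
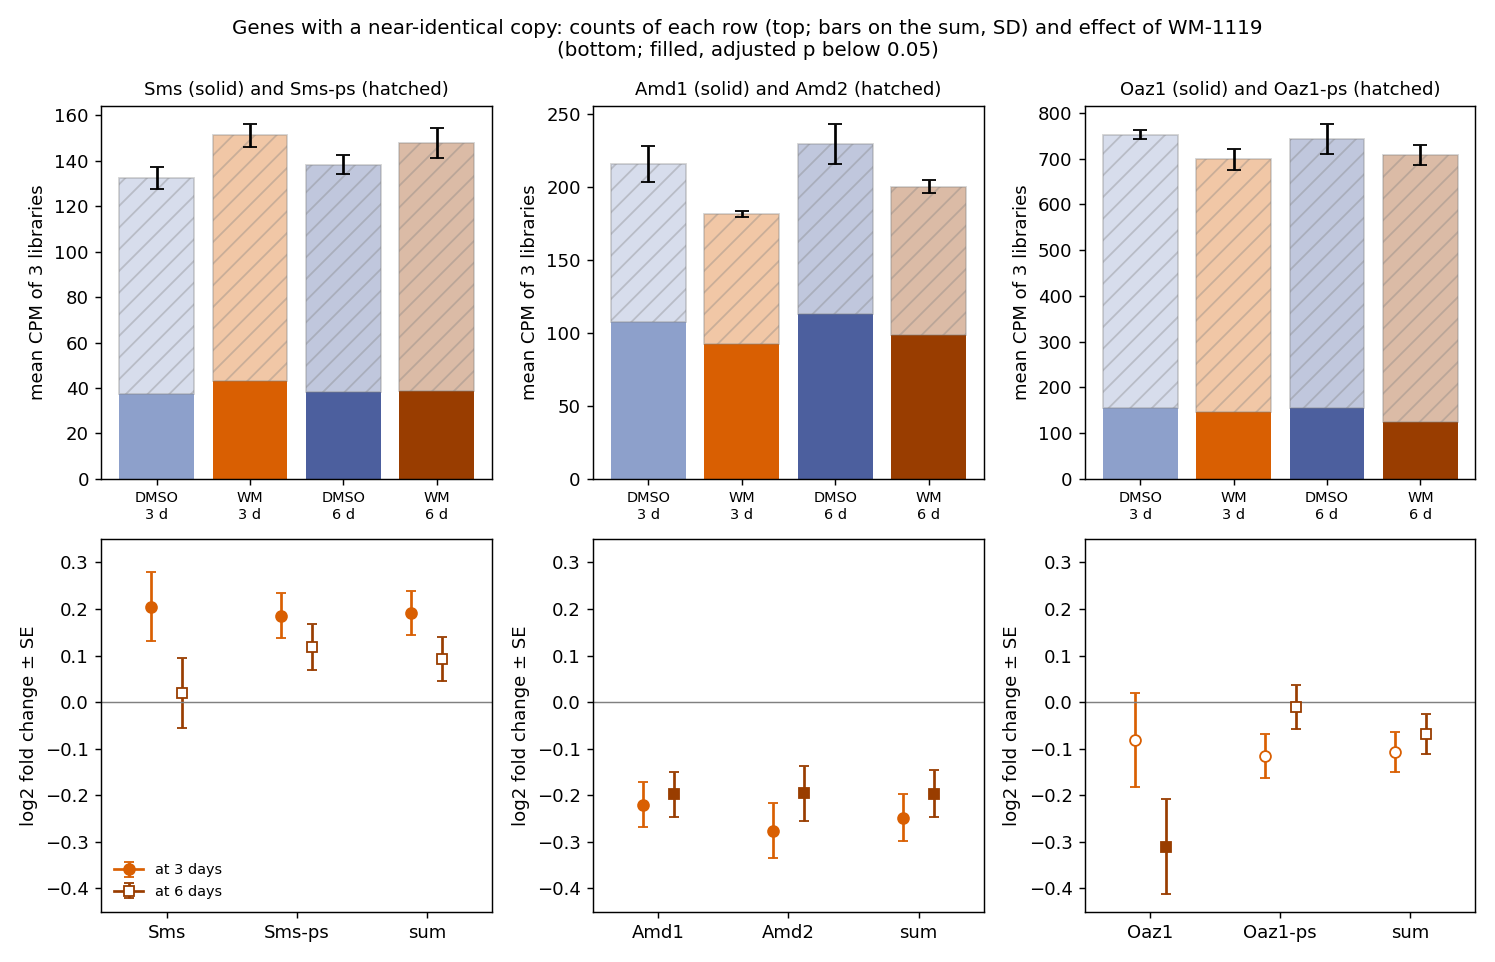
Upper panels: mean CPM of Sms, Amd1 and Oaz1 (solid) and of their near-identical copies (hatched) in the 4 groups, with the SD of the sum over 3 libraries. Lower panels: log2 fold change ± SE for the gene, the copy and the sum at 3 days (circles) and 6 days (squares), filled where the adjusted p is below 0.05. Amd1, Amd2 and their sum are lower at both times, while Oaz1 is filled at 6 days and its copy and their sum are not.

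The antizyme inhibitor gene Azin1 (chr15:38487430-38519294) showed no called change. Its libraries at 3 days held 211, 198 and 214 CPM in DMSO and 214, 194 and 189 CPM in WM-1119, and those at 6 days 217, 199 and 228 CPM in DMSO and 215, 209 and 207 CPM in WM-1119. The groups overlapped at both times. The log2 fold change was -0.06 at 3 days (95% confidence interval -0.18 to 0.05, adjusted p = 0.44) and -0.03 at 6 days (-0.14 to 0.08, adjusted p = 0.72).

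On the breakdown side no gene passed the test at either time. Sat1 (chrX:155213126-155216449), the acetyltransferase that starts polyamine breakdown, held 22.9, 20.7 and 24.2 CPM in DMSO and 25.2, 22.1 and 24.1 CPM in WM-1119 at 3 days. At 6 days it held 22.9, 22.2 and 20.02 CPM in DMSO and 22.8, 26.2 and 24.2 CPM in WM-1119, and only the lowest treated library lay within the DMSO range. Its log2 fold change was 0.07 at 3 days (95% confidence interval -0.10 to 0.24, adjusted p = 0.59) and 0.17 at 6 days (0.00 to 0.34, adjusted p = 0.13). Paox (chr7:140115735-140134334), which oxidises the acetylated polyamines, ran from 14.8 to 18.7 CPM over all 12 libraries. Its log2 fold change was -0.04 at 3 days (-0.24 to 0.17) and -0.09 at 6 days (-0.29 to 0.11). Paox overlaps Echs1 on the opposite strand at its start, and the sources used here do not give the strand setting of the counting.

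Smox (chr2:131491858-131525183), the oxidase that acts on spermine itself, was barely detected. It had 16 counts over the 12 libraries, from 0 to 4 in a library, with 0 in 5 of them. A count of 0 allows up to 3 counts, which is 0.0732 to 0.204 CPM depending on the library and covers counting error only. A difference between groups was not detectable at this depth.

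**Figure D3:**
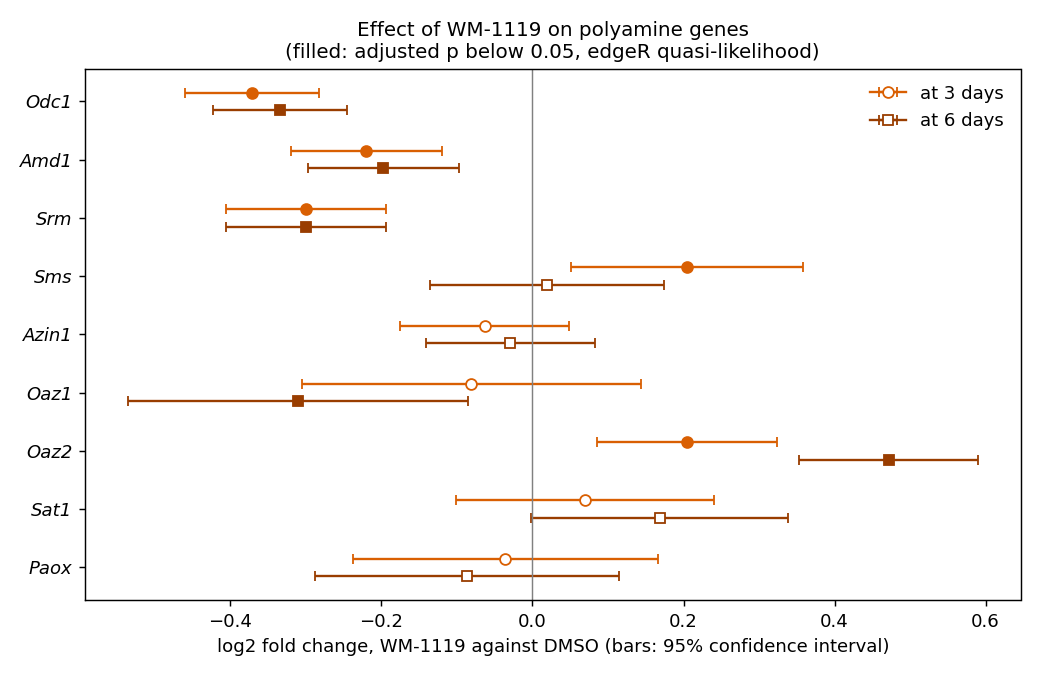
Log2 fold change of WM-1119 against DMSO (horizontal axis) with its 95% confidence interval for the 9 tested genes at 3 days (circles) and 6 days (squares), filled where the adjusted p is below 0.05. Odc1, Amd1 and Srm lie below 0 at both times with like values, Oaz2 lies above 0 at both times, and the intervals of Azin1, Sat1 and Paox cross 0.

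No gene of the 9 differed in its effect between the times by the test of that difference (0 of 9 by edgeR, DESeq2 and limma voom, against 0.725% of all genes by edgeR), and 1 of 9 had an unadjusted p below 0.05, as did 8.22% of all genes. That gene was Oaz2, whose effect was larger at 6 days by 0.27 ± 0.08 on the log2 scale (unadjusted p = 0.0034, adjusted p = 0.22). Without DMSO replicate 3 at 6 days the difference was 0.31 and passed (adjusted p = 0.046). For Odc1 the difference was 0.04 (95% confidence interval -0.09 to 0.16) and for Srm 0.00 (-0.15 to 0.15). In DMSO alone, 0 of the 9 genes differed between 6 and 3 days by any of the 3 tools, against 0.809% of all genes by edgeR, and 0 had an unadjusted p below 0.05, where 12.9% of all genes did. The DMSO difference shares its libraries with the treatment comparisons and is set beside them only: it was 0.06 for Odc1, 0.04 for Srm, 0.07 for Amd1 and -0.11 for Oaz2 (log2).

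Levels were compared per kilobase of the gene lengths in the table (RPKM), and Odc1, Srm and Oaz1 stood above the other 7 genes in each group. In DMSO at 3 days Odc1 stood at 271 ± 5.63 RPKM (SD, n = 3), rank 221 of the 11997 tested genes, followed by Srm at 206 ± 11.1 and Oaz1 at 145 ± 8.68. Azin1 (41.3 ± 1.67), Amd1 (33.5 ± 1.18), Oaz2 (22.1 ± 0.51) and Sat1 (20.3 ± 1.60) came next. Sms (11.1 ± 0.71), Paox (9.61 ± 0.95) and Smox (0.024 ± 0.025) were lowest. The order of the means was the same in all 4 groups. The libraries of Oaz2 and Sat1 overlapped in both DMSO groups, and those of Sms and Paox in DMSO at 6 days, while no other neighbours in the order overlapped. With the copies added at the member's own length, Oaz1 reached 701 RPKM in DMSO at 3 days, above Odc1, Amd1 67.2 and Sms 39.2, so the place of these 3 in the order depends on the copies.

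Promoter windows from RefSeq (GRCm38.p6, 250 bases before to 50 after a start) were matched for 8 of the 10 genes, not for Srm and Azin1. They were searched on both strands for the E-box CACGTG, the site to which MYC and MAX bind, and for the GC box GGGCGG, bound by SP1. The E-box is palindromic and neither motif contains the other. Both Paox windows (chr7:140125407-140125706 and 140125435-140125734) lie within its gene span, not at the outer end. Within the windows an E-box was found only for Sms, in 1 of its 2 windows, and in 7.15% of all 32851 windows. A GC box was found for Odc1 (4 matches), Amd1 (1), Oaz2 (4), Sat1 (2), Smox (6), Paox (3 in each of 2 overlapping windows) and the other Sms window (4), none for Oaz1, and in 35.66% of all windows. The upstream parts for Odc1 and Amd1, which were lower together, for Oaz2, which was higher, and for Sms, which holds the E-box, are shown with complete matches and any match that runs past the start in capitals:
Odc1, chr12:17544623-17544807, plus strand: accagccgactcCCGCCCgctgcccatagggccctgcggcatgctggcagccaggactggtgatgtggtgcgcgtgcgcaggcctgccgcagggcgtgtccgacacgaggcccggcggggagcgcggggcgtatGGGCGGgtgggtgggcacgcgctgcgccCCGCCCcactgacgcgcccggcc
Amd1, chr10:40302189-40302438, minus strand: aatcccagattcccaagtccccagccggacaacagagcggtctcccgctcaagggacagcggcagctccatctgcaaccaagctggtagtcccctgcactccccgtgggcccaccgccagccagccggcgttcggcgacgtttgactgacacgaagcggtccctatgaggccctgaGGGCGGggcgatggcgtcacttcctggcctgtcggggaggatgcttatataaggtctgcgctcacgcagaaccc
Oaz2, chr9:65676298-65676547, plus strand: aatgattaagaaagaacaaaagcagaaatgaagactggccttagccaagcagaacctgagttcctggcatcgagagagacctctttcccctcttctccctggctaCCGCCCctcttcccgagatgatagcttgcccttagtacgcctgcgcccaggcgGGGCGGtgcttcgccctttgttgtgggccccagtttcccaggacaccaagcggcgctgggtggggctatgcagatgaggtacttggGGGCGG
Sms, chrX:157492288-157492537, minus strand: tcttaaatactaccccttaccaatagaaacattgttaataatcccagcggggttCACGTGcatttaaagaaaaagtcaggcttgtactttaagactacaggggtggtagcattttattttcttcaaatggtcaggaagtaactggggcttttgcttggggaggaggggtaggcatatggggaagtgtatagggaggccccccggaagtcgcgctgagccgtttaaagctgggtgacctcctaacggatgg
The matches describe these letters only, and sites outside the windows, as in introns, were not searched. The part shown has 185 bases for Odc1 and 250 for Oaz2, and each holds 3 complete GC boxes. The part of these motifs in the changes was not tested.

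Around the 10 genes, 42 other genes of connected reactions were listed, of which 27 were tested. At 3 days 10 of the 27 passed (3 higher, 7 lower; median log2 fold change of the 27 -0.06), against 24.4% of all genes tested. At 6 days 12 passed (5 higher, 7 lower; median 0.01), against 30.8% of all genes. Without the 5 libraries with over 1 CPM of Col1a1, 1 library is left per group at 6 days. Genes that lost their call at 6 days in that fit include Amd2, Pycr1, Oat and Aldh18a1. The log2 fold changes of Amd2 and Pycr1 there were about as large (-0.23 and -0.42), while those of Oat and Aldh18a1 were smaller (0.11 and -0.10). At both times 3 were higher and 6 lower. Among 9 tested genes of ornithine and arginine supply, 5 passed at 3 days (2 up, 3 down) and 5 at 6 days (3 up, 2 down).

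In that supply group Ass1, argininosuccinate synthase, rose most. It held 15.9, 15.8 and 15.1 CPM in DMSO and 21.2, 22.4 and 21.0 CPM in WM-1119 at 3 days, and 12.2, 14.8 and 18.2 against 24.5, 27.0 and 25.0 CPM at 6 days. The treated libraries lay above all controls at each time, and the log2 fold change was 0.47 ± 0.11 (adjusted p = 0.0024) and 0.78 ± 0.10 (adjusted p = 5.6e-06). Oat, which interconverts ornithine and glutamate semialdehyde, rose by 0.17 at 3 days (adjusted p = 0.019) and 0.24 at 6 days (adjusted p = 0.00083). The call for Oat at 3 days was lost without DMSO replicate 1 (0.053), DMSO replicate 3 (0.086) or WM-1119 replicate 3 (0.12). Aldh18a1, which makes glutamate semialdehyde, fell by 0.18 and by 0.20, and Pycr1, which makes proline, fell by 0.48 and by 0.43 (log2). Pycr1, at 3.75 to 6.09 CPM in group means, lost its call at 3 days without DMSO replicate 2 (adjusted p = 0.069) or WM-1119 replicate 1 (0.10). At 6 days it lost it without DMSO replicate 1 (0.064) or WM-1119 replicate 1 (0.056), 2 (0.060) or 3 (0.052), and with DESeq2 (0.051).

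Of 9 tested genes around S-adenosylmethionine and methionine salvage, 1 passed at 3 days and 2 at 6 days, where 24.4% and 30.8% of all genes did. Got1, an aspartate aminotransferase, fell by 0.26 and by 0.33 (log2; adjusted p = 5.4e-05 and 1.4e-06). Spermidine is also used to make hypusine in the translation factor eIF5A. Of the 4 genes of that step 1 passed at 3 days and 2 at 6 days, beside the same 24.4% and 30.8% of all genes. Eif5a2, the second gene for that factor, fell from 16.5 ± 1.87 to 12.4 ± 0.52 CPM at 3 days and from 19.0 ± 2.75 to 9.91 ± 0.53 CPM at 6 days (log2 fold change -0.41 and -0.94, adjusted p = 0.0071 and 6.9e-07). Of 4 tested genes of polyamine transport, Atp13a2, a lysosomal polyamine exporter, rose from 200 ± 10.0 to 246 ± 3.97 CPM at 3 days and from 177 ± 5.98 to 230.4 ± 7.33 CPM at 6 days. Its log2 fold changes were 0.30 and 0.38 (adjusted p = 3.9e-05 and 1.2e-06). Cav1, the caveolin gene, was at 5.05 ± 0.65 and 2.73 ± 0.21 CPM at 3 days and at 5.83 ± 1.29 and 3.02 ± 0.58 CPM at 6 days. On the log2 scale it fell by 0.88 (adjusted p = 0.0011) and by 0.96 (adjusted p = 0.00033). Of 5 paralogs only Amd2 was tested; its call at 6 days was lost without DMSO replicate 3 at 6 days (adjusted p = 0.083).

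**Figure D4:**
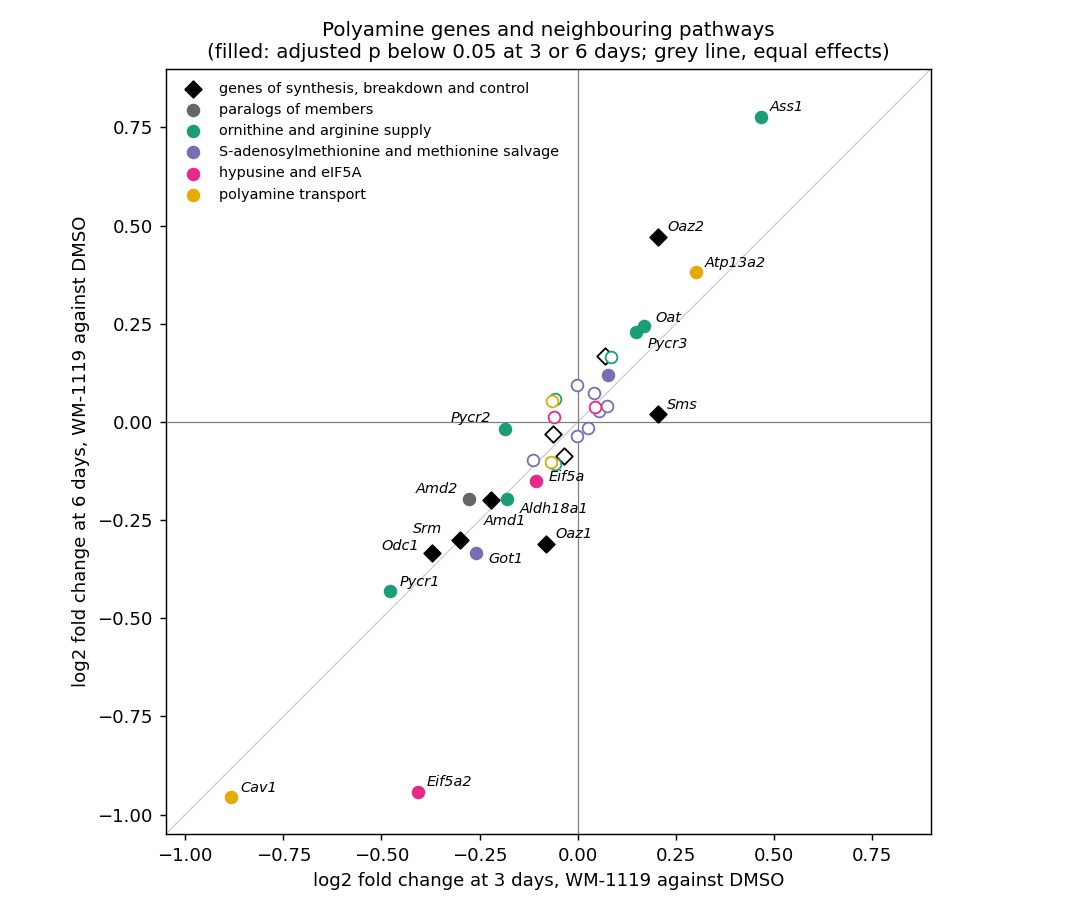
Log2 fold change of WM-1119 against DMSO at 3 days (horizontal) and 6 days (vertical) for the 9 tested genes of polyamine synthesis, breakdown and control (diamonds) and 27 connected genes (circles, coloured by list), filled where the adjusted p is below 0.05 at either time. Odc1, Srm, Amd1, Pycr1 and Got1 lie together at the lower left, Ass1, Oaz2 and Atp13a2 at the upper right, and most of the methionine salvage genes near the centre.

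Of 12 listed regulators, 10 were tested, and 4 passed at 3 days (2 higher, 2 lower; 24.4% of all genes passed) and 5 at 6 days (3 higher, 2 lower; 30.8% of all genes). Leaving out the 5 libraries with Col1a1 above 1 CPM, 3 of the 10 passed at 3 days, against 18.8% of all genes in that fit. At 6 days, with 1 library left per group, Max, Mxd1 and Mxd4 lost their calls, as given below. Myc itself, whose row can hold reads of the transgene as well as the endogenous gene, stood at 1378, 1442 and 1525 CPM in DMSO and at 1232, 1169 and 1174 CPM in WM-1119 at 3 days. At 6 days it stood at 1474, 1468 and 1645 CPM in DMSO and at 1200.4, 1197 and 1254 CPM in WM-1119. The groups did not overlap, and Myc fell by 0.28 at 3 days (adjusted p = 0.00016) and by 0.33 at 6 days (adjusted p = 1.7e-05) on the log2 scale. Mxd3 and Mxd4, which encode partners of MAX that oppose MYC, rose by 0.55 and 0.22 at 3 days (adjusted p = 0.00026 and 0.0075) and by 0.70 and 0.29 at 6 days (adjusted p = 1.3e-05 and 0.00044). Mxi1, of the same family, was lower at 3 days (-0.18, adjusted p = 0.039) and at -0.15 at 6 days (adjusted p = 0.073). Max was lower at 6 days (-0.20, adjusted p = 0.0031). Mxd1, also of that family, was higher at 6 days (0.38, adjusted p = 0.022). The call of Mxi1 at 3 days was lost on leaving out DMSO replicate 1 (adjusted p = 0.15) or 2 (0.13) at that time. It was also lost without WM-1119 replicate 1 (0.056), 2 (0.12) or 3 (0.098) at 3 days. Other settings that ended it were DESeq2 (0.057), limma voom (0.051), upper-quartile scaling (0.077) and thinning to equal totals (0.12). Without the 5 Col1a1 libraries it ended too, at a log2 fold change of -0.17. At 6 days Mxi1 passed with a replicate block fitted within that time (-0.15, adjusted p = 0.021) or in all 4 groups (0.038), and with no filter (0.043). It also passed without DMSO replicate 3 at 3 days (0.0498), DMSO replicate 3 at 6 days (0.035) or WM-1119 replicate 1 at 6 days (0.028). Mxd1 at 6 days was lost on leaving out DMSO replicate 3 (0.052), WM-1119 replicate 1 (0.063) or WM-1119 replicate 2 (0.099) at that time. With the 5 Col1a1 libraries left out, Max at 6 days was at -0.19 (adjusted p = 0.16) and Mxd1 at 0.35 (adjusted p = 0.40). Without DMSO replicate 1 at 3 days the adjusted p of Mxd4 at 3 days was 0.051 (log2 fold change 0.18). Without the 5 libraries with over 1 CPM of Col1a1 it stood at 0.25 at 6 days (adjusted p = 0.16). The part of these genes in the levels of Odc1, Srm or Amd1 was not tested.

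By root mean square difference of centred log2 CPM over the 12 libraries, the 5 nearest patterns to that of Odc1, among genes averaging 5 CPM or more, were Eef1g (0.028), Scarb1 (0.038), Septin11 (0.038), Rpsa (0.040) and Pdia6 (0.042). The median over the 9569 genes compared was 0.21. For Sat1 they were 1110059G10Rik (0.053), Abt1 (0.062), B4galt5 (0.064), Dcaf11 (0.064) and Mettl23 (0.065), with a median of 0.15. The distances are a description, with no test, and all libraries and their scaling are shared between the genes.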

How the data were processed

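The deposited table holds whole-number read counts per gene for 12 libraries. The authors made them from aligned reads of poly(A) libraries (a stranded kit, per the labels), with featureCounts on mm10 per the submitters' processing notes. The sources used here give no aligner, strand setting or rule for reads with several places. Rows without an identifier (874 of 27179, up to 0.362% of the counts of a library) were left out, and 25275 identifiers matched a RefSeq symbol.

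Libraries were scaled with TMM, genes filtered with filterByExpr, and 11997 genes tested in 1 quasi-likelihood fit with 4 group means (edgeR 4.0.16, R 4.3.3), checked on simulated data. Adjusted p-values are edgeR's, by Benjamini-Hochberg over all genes, two-sided, unless DESeq2 1.42.0 or limma 3.58.1 is named; an exact permutation test of 3 against 3 cannot go below 0.1. RPKM used the deposited gene lengths (unit other). Copies were found with blastn 2.17.0 (at least 95% identity over 300 bases). Named genes outside the 10 are those called at both times in 1 direction, the paralogs and the 5 nearest patterns; Mxi1, Max, Mxd1 and the named markers were chosen after their values were seen. The members and lists were chosen with earlier results of these data known.

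Same-numbered libraries of the 2 groups at 6 days deviated together (lowest correlation 0.14), while those at 3 days did not (lowest -0.02), so the replicate number was also fitted as a block. Also tried were scaling by RLE or upper quartile, filtering at 1 CPM in 3 libraries or not at all, DESeq2, limma voom, only the groups compared, each library left out, no libraries with over 1 CPM of Col1a1, equal totals and, chosen after seeing the data, copies summed and a block at 6 days alone.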

Additional observations from a re-analysis of the deposited data

How the results depend on the processing

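Odc1, Srm and Amd1 kept their call and direction at both times in every alternative run. The count of called genes among the 9 ran from 3 (without DMSO replicate 1 at 3 days) to 5 at 3 days when 1 library was left out, from 4 to 5 at 6 days, and from 0 to 1 for the difference between times. It was 3 at 6 days without the libraries with over 1 CPM of Col1a1. That exclusion also gave 5 connected genes and 1516 genes in all at 6 days, 5 for the difference between times, and 537 for DMSO at 6 against 3 days, and it leaves 1 library per group at 6 days. For the DMSO comparison, 97 in the reported fit became 173 with no filter, 151 with DESeq2, 47 with only the groups compared, 167 with the replicate block, and 41 to 158 when 1 library was left out. For the difference between times, 87 became 46 to 217 when 1 library was left out. No called value reversed. With the replicate number as a block at 6 days alone, 4352 genes passed against 3693, and the same 5 of the 9 genes did (Oaz1 adjusted p = 0.0011); the block in all 4 groups ended only the call for Oaz1 at 6 days among the 9 genes. Genes at low level, such as Smox, are limited by depth. The cause of these shifts was not tested.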
